A study of Mus musculus with 2 samples.

Results

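The genes described here are 6 genes of the Notch pathway and of beta-selection, the checkpoint at which a thymocyte without CD4 and CD8 is kept if it has made a working TCR beta chain. They are the receptors Notch1 and Notch3, the Notch targets Hes1 and Dtx1, Ptcra, which encodes the pre-TCR alpha chain, and Il2ra, which encodes CD25. They were chosen by name, with earlier results of these data known, and all 6 of 6 were among the 20282 genes of the deposited count matrix. The study made single-cell RNA-seq libraries of the 3′ ends of transcripts from whole thymus, with 1 library from Cdc42f/f mice (WT) and 1 from littermates carrying Cdc42f/f and CD4Cre (KO). Both genotypes carry loxP sites in Cdc42, a small GTPase of the actin cytoskeleton, and only the KO mice carry Cre, which the CD4 promoter drives from the stage at which CD4 is first made. The cells of 5 mice of 6 weeks were pooled for each library. Each condition is therefore 1 sample, and a difference between them has no replicate check. Over 13683 cells the 6 genes had between 472 unique molecular identifiers (UMIs, each standing for 1 captured transcript), for Dtx1, and 5018, for Notch1. Levels are given in CPM, the UMIs of a gene per 1000000 UMIs of all genes in the same cells. The thymus label was met by its main cells, since the 8 marker genes of CD4+ CD8+ (DP) thymocytes summed to 10815 CPM for the WT-labelled and 10857 CPM for the KO-labelled library in the 5 largest clusters.

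Notch1 is a receptor that is cleaved when it meets its ligand on thymic epithelium, and its inner part then enters the nucleus, binds Rbpj and switches on targets that include Hes1, Dtx1, Notch3, Ptcra and Il2ra. In the thymus this signal commits progenitors to the T lineage and carries CD4- CD8- (DN) cells through their CD25+ stages. Pre-TCR signalling then ends Notch-driven transcription, lets the cells divide and takes them to the DP stage, where CD25 is no longer made. Cells of the gamma-delta T lineage leave at the same DN stages without a pre-TCR.

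Positions are those of GENCODE vM21 on GRCm38. Notch1 lies at chr2:26457903-26516663 on the minus strand, Notch3 at chr17:32120820-32166852 on the minus strand, and Hes1 at chr16:30064384-30067796 on the plus strand. Dtx1 lies at chr5:120680202-120711927 on the minus strand, Ptcra at chr17:46755663-46763712 on the minus strand, and Il2ra at chr2:11642807-11693193 on the plus strand. All 6 are protein coding. Notch1, Notch3 and Ptcra overlap noncoding genes on the opposite strand (0610009E02Rik and Gm13568, Gm17276, and Gm26904), Notch1 and Il2ra overlap Mir6996 and Gm37881 on their own strand, and Hes1 and Dtx1 overlap no other gene. RefSeq promoters of GRCm38.p6, taken as the 250 bases before the start site, matched 5 of the 6 genes, without Hes1. They were searched on both strands for TGGGAA, the core of the Rbpj site, and for CAGCTG, an E-box that reads the same on both strands and shares no overlap with TGGGAA here. Ptcra held 2 of each, and Notch1, Notch3, Dtx1 and Il2ra held neither. The promoter of Ptcra is shown because it alone of the 5 held the motifs, and that of Il2ra as an example of the 4 without them. The former is chr17:46763713-46763962 on the minus strand and the latter chr2:11642542-11642791 on the plus strand, each written 5′ to 3′ with the motifs in capitals.
Ptcra: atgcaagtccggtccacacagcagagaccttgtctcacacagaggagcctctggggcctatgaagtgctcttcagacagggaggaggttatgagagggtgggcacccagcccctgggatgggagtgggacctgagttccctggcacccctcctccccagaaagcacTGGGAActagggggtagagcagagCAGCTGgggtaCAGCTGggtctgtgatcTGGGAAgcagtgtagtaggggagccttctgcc
Il2ra: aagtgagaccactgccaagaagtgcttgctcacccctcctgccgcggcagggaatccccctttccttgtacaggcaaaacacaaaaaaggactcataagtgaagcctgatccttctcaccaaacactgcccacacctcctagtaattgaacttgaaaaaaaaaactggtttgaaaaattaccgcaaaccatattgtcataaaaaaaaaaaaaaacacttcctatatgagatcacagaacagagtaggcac
In Ptcra the first bases of TGGGAA lay 84 and 32 bases, and those of CAGCTG 60 and 49 bases, before the start site. Of 32851 RefSeq promoters of the same length, 21.6% held TGGGAA at least 1 time and 2.77% at least 2 times, while 13% held CAGCTG at least 1 time and 1.26% at least 2 times. Both motifs were present in 3.01%. These matches describe letters in a window and are no measure of binding.

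The WT-labelled library held 6115 cells with a median of 3192 UMIs, and the KO-labelled library 7568 cells with a median of 3401. They share 17 cell barcodes. The cells were taken in the 19 clusters that the authors deposited, each called here by its number or by a gene that marks it, and like clusters were summed. The Myl10 cluster (54 and 99 cells) holds the highest levels of Il2ra, Ptcra and Dtx1, which are members and also stand in the list of DN markers. Proliferating clusters 11 (177 and 188 cells) and 12 (138 and 186), the Top2a cluster (232 and 231) and the Cenpf cluster (139 and 132) hold dividing cells. The 5 Rag1 clusters (3636 and 4641 cells) hold DP cells, the Cd5 clusters (535 and 843) DP cells with signs of TCR signalling, and the Itm2a (479 and 316) and Ms4a4b (332 and 396) clusters cells past positive selection. The Lars2 cluster (250 and 366 cells) has few UMIs per cell, with medians of 955.5 and 1200, and much mitochondrial RNA, with medians of 18.6% and 15.7% of UMIs. Cdc42 gives no clear check of the labels, since the KO-labelled library had 0.977 times the WT-labelled level in the Myl10 cluster (interval 0.795 to 1.21), 0.895 times in the Rag1 clusters (0.858 to 0.934) and 1.30 times in the Ms4a4b cluster (1.20 to 1.41). It was 0.838 times in cluster 11 (0.771 to 0.911), 0.819 times in cluster 12 (0.756 to 0.888) and 0.868 times in the Top2a cluster (0.807 to 0.933). In the Cenpf cluster it was 0.869 times (0.766 to 0.985) and in the Cd5 clusters 0.841 times (0.771 to 0.917). The intervals included 1 in the Itm2a cluster, at 0.964 times (0.878 to 1.06), and in the Lars2 cluster, at 1.42 times (0.982 to 2.10). Every direction below rests on the labels as deposited. Intervals are exact 95% intervals and cover counting error only. Since the capture of 3′ ends differs between genes, levels are compared across clusters and libraries and not between genes. The clusters were made from all genes, these 6 included, so a contrast of clusters is a description.

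All 6 genes had their highest level in the Myl10 cluster in both libraries, among the 17 clusters with at least 100000 UMIs in the library. The interval of the ratio to the next cluster included 1 for 1 of the 12 pairs of gene and library, Dtx1 in cluster 18 of the KO-labelled library, 49.6 CPM from 8 cells, 1.69 times lower (0.78 to 4.33). The Myl10 cluster, with 1.12% of all cells and 2.25% of the UMIs of all genes, held 58.1% of the 812 Hes1 UMIs (interval 54.7 to 61.6). It held 52.4% of the 1950 Il2ra UMIs, 35.2% of the 586 Notch3 UMIs and 23.5% of the 472 Dtx1 UMIs, against 15.7% of the Notch1 and 15.6% of the 3734 Ptcra UMIs. The Rag1 clusters had 60.5% of the cells and 38.8% of the UMIs of all genes. Of the Ptcra UMIs they held 37.4%, close to their share of the UMIs of all genes. They held 28.3% of the Notch3 and 25.0% of the Notch1 UMIs, but 9.28% of the Il2ra, 8.26% of the Dtx1 and 0.616% of the Hes1 UMIs. Dtx1 stood apart from the other genes in having 28.4% of its UMIs in the Ms4a4b cluster.

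**Figure D1:**
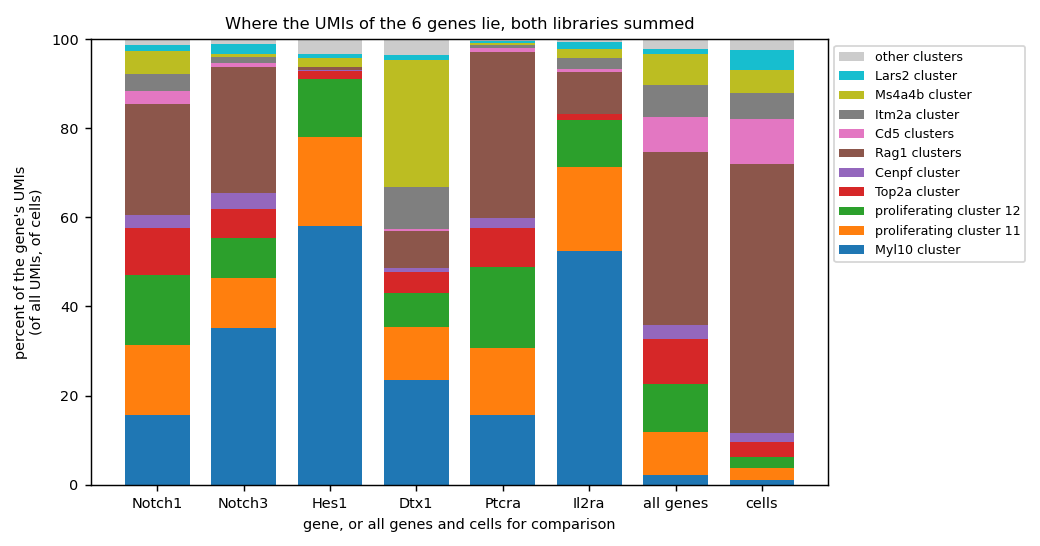
Share of each gene's UMIs by cluster or group of clusters, in percent, with both libraries summed, beside the share of all UMIs and of all cells. The Myl10 cluster, at 1.12% of the cells and 2.25% of all UMIs, takes 58.1% of the Hes1 and 52.4% of the Il2ra UMIs. The Ms4a4b cluster takes 28.4% of those of Dtx1.

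Besides Il2ra, Ptcra and Dtx1, the list of DN markers has Kit, Cd44, Erg, Lyl1, Spi1 and Bcl11a, which summed to 107 CPM for the WT-labelled and 85.8 for the KO-labelled library in the Myl10 cluster. Cd44, the marker of the earliest DN cells, had 1 and 2 UMIs there. These 6 genes were higher in the Cd74 cluster, at 791 and 590 CPM, and in the Apoe cluster, at 473 and 603, which hold B cell, dendritic or macrophage genes, so that the DN name of the Myl10 cluster rests mainly on the members. The 9 gamma-delta T markers reached 2252 and 2010 CPM in the same cluster, chiefly from Trgc1, Trgc2, Trgc4 and Trdc, whose loci are also transcribed in DN cells. The cells of the cluster thus carry markers of DN and of gamma-delta T cells, and fewer cells of a kind and less RNA per cell cannot be told apart in its sums.

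Notch1 was found in both libraries in each of the 10 groups from the Myl10 to the Lars2 cluster. Outside them it had 4 and 19 UMIs in the Cd74 cluster and 0 and 2 in the Apoe cluster. The Myl10 cluster had 466 CPM (interval 410 to 528) for the WT-labelled and 547 (502 to 595) for the KO-labelled library. A UMI of Notch1 was found in 51 of 54 and 93 of 99 of these cells, with a median of 4 and 5 and at most 14 and 13 per cell. Its level in proliferating cluster 11 was 106 and 134 CPM, a fall of 4.38 times (3.69 to 5.20) and 4.07 times (3.60 to 4.61). In the Rag1 clusters it was 44.5 and 50.2, which is 10.5 and 10.9 times below the Myl10 cluster. The lowest level among those 10 groups was in the Cd5 clusters, at 24.1 and 27.2. The Ms4a4b cluster was above them at 60.1 and 54.7, by 2.50 times (1.78 to 3.56) and 2.01 times (1.53 to 2.66).

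Notch3, a receptor gene that Notch1 signalling itself raises, was much more confined to the early cells. It had 99.98 CPM (74.9 to 131) and 154 (131 to 181) in the Myl10 cluster, where 33 of 54 and 67 of 99 cells held a UMI. In proliferating cluster 11 it was at 6.996 and 12.8 and in the Rag1 clusters at 4.60 and 7.55, which is 21.7 times (14.5 to 32.6) and 20.5 times (15.97 to 26.3) below the Myl10 cluster. Only 1 and 4 Notch3 UMIs were counted in the Cd5 clusters and 1 and 3 in the Ms4a4b cluster. From the Rag1 to the Cd5 clusters the ratio was 8.79 in the WT-labelled library (1.51 to 354) and 6.46 in the KO-labelled library (2.46 to 24.1). The next highest level after the Myl10 cluster was that of the RNA-poor Lars2 cluster, from 5 and 8 UMIs.

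Hes1, a transcriptional repressor and direct Notch target, was the gene most restricted to the Myl10 and proliferating clusters. The former had 121 UMIs or 228 CPM (189 to 273) for the WT-labelled and 351 UMIs or 354 CPM (318 to 393) for the KO-labelled library. Cells with a Hes1 UMI numbered 34 of 54 and 77 of 99. The level was 13.99 and 33.9 in proliferating cluster 11 and 4.76 and 21.1 in cluster 12. In the 8277 cells of the Rag1 clusters there were 1 and 4 Hes1 UMIs, and in the 1378 cells of the Cd5 clusters there were 0 in both libraries. Against the level that 3 counts would give in the Cd5 clusters of each library, Hes1 was at least 145 times and at least 404 times higher in the Myl10 cluster. It reappeared in the Ms4a4b cluster with 5 and 11 UMIs, from 1 and 4 cells, and in the Cd74 cluster, which holds B cell and MHC class II genes, with 7 and 14 UMIs.

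Dtx1, whose protein is a RING ubiquitin ligase that binds the Notch receptor, had a first and a second peak. In the Myl10 cluster it had 28 UMIs or 52.8 CPM (35.1 to 76.3) for the WT-labelled and 83 UMIs or 83.8 CPM (66.7 to 104) for the KO-labelled library. It was nearly absent from DP cells, with 9 and 30 UMIs in the Rag1 clusters and 1 UMI in each library in the Cd5 clusters. In the Ms4a4b cluster it was back at 60 and 74 UMIs, or 25.8 (19.7 to 33.2) and 32.7 (25.6 to 41.0) CPM, which is 49.2 times (8.50 to 1975) and 112 times (19.4 to 4469) above the Cd5 clusters. There 46 of 332 and 53 of 396 cells held a Dtx1 UMI, or 13.9% and 13.4%, while in the Cd5 clusters the shares were 0.187% and 0.119%. After thinning each cell to 1000 UMIs the shares were 2.72% and 4.04% against 0 cells of 532 and 838. Unthinned, the median depth was 6738 and 5032 UMIs in the Ms4a4b cluster and 3402 and 3775 in the Cd5 clusters. The rise of Notch1 between the same groups was the 2.50 and 2.01 times given above.

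Ptcra, whose product pairs with the TCR beta chain, was present in the DP clusters. In the Myl10 cluster it had 307 CPM (262 to 358) for the WT-labelled and 425 (385 to 468) for the KO-labelled library, and 37 of 54 and 80 of 99 cells held a UMI. It was at 79.0 and 93.1 in proliferating cluster 11, at 84.3 and 99.7 in cluster 12, at 47.4 and 47.0 in the Top2a cluster and at 51.9 and 54.1 in the Rag1 clusters. From the Myl10 to the Rag1 clusters it was 5.93 times lower (4.946 to 7.07) and 7.85 times lower (6.96 to 8.84), a smaller drop than that of any of the other 5 genes in either library. Its large drop came between the Rag1 and the Cd5 clusters, where 12 and 18 UMIs were left, or 6.28 and 5.26 CPM. That drop was 8.26 times (4.69 to 16.1) and 10.3 times (6.47 to 17.5), beside 1.85 times in both libraries for Notch1. From the Myl10 to the Cd5 clusters Ptcra was 48.9 and 80.8 times lower, more than Notch1 with 19.3 and 20.1 times. The share of cells with a Ptcra UMI went from 12.9% and 13.9% in the Rag1 clusters to 1.495% and 1.90% in the Cd5 clusters, and after thinning from 4.70% and 5.01% to 0.188% and 0.477%. The Cd5 clusters were the deeper of the 2 groups, with medians of 3402 and 3775 UMIs against 2823 and 3097.

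Among the 5 Rag1 clusters, cluster 4 had the most Ptcra, with 61.4 and 72.2 CPM, 1.58 times (1.22 to 2.07) and 1.56 times (1.26 to 1.93) the level of cluster 0. Against cluster 1 the ratio was 1.07 (0.84 to 1.37) for the WT-labelled library, which includes 1, and 1.44 (1.17 to 1.76) for the KO-labelled library. Notch1 was also highest there, at 58.7 and 73.7, which is 1.82 times (1.37 to 2.42) and 1.95 times (1.56 to 2.44) cluster 0. So was Notch3, at 7.62 and 11.2, or 2.51 times (1.03 to 6.71) and 1.69 times (0.96 to 3.01) cluster 0. Il2ra was lowest in cluster 4, at 1.79 and 5.43, and highest in cluster 1, at 8.72 and 12.3. Its level in cluster 4 was 0.21 times (0.05 to 0.61) and 0.44 times (0.23 to 0.81) that of cluster 1. The interval of its ratio between clusters 4 and 0 included 1 in both libraries.

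Il2ra was present in most cells of the Myl10 cluster and rare among DP cells. The Myl10 cluster had 271 UMIs or 511 CPM (452 to 576) for the WT-labelled and 751 UMIs or 758 CPM (705 to 814) for the KO-labelled library. Cells with a UMI numbered 48 of 54 and 96 of 99, with a median of 2.5 and 6 and at most 26 and 30 UMIs per cell. It was at 32.2 and 77.6 in proliferating cluster 11, 15.9 times (12.5 to 20.3) and 9.77 times (8.51 to 11.2) lower. In the Rag1 clusters it was at 4.97 and 8.27, which is 103 times (76.6 to 140) and 91.7 times (75.9 to 112) below the Myl10 cluster. Of the 45 and 111 cells with a UMI there, 38 and 101 held a single one. Those shares, 1.24% and 2.39% of cells at median depths of 2823 and 3097, stand beside 0.374% and 1.19% in the Cd5 clusters at 3402 and 3775. Thinned to 1000 UMIs they were 0.445% and 0.821% beside 0 of 532 cells and 0.597%. In the KO-labelled library the share among Rag1 cells (interval 0.581 to 1.12) was not distinguishable from that among Cd5 cells (0.194 to 1.39), while the unthinned levels differed by 3.16 times (1.03 to 15.8) and 2.83 times (1.49 to 6.04).

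**Figure D2:**
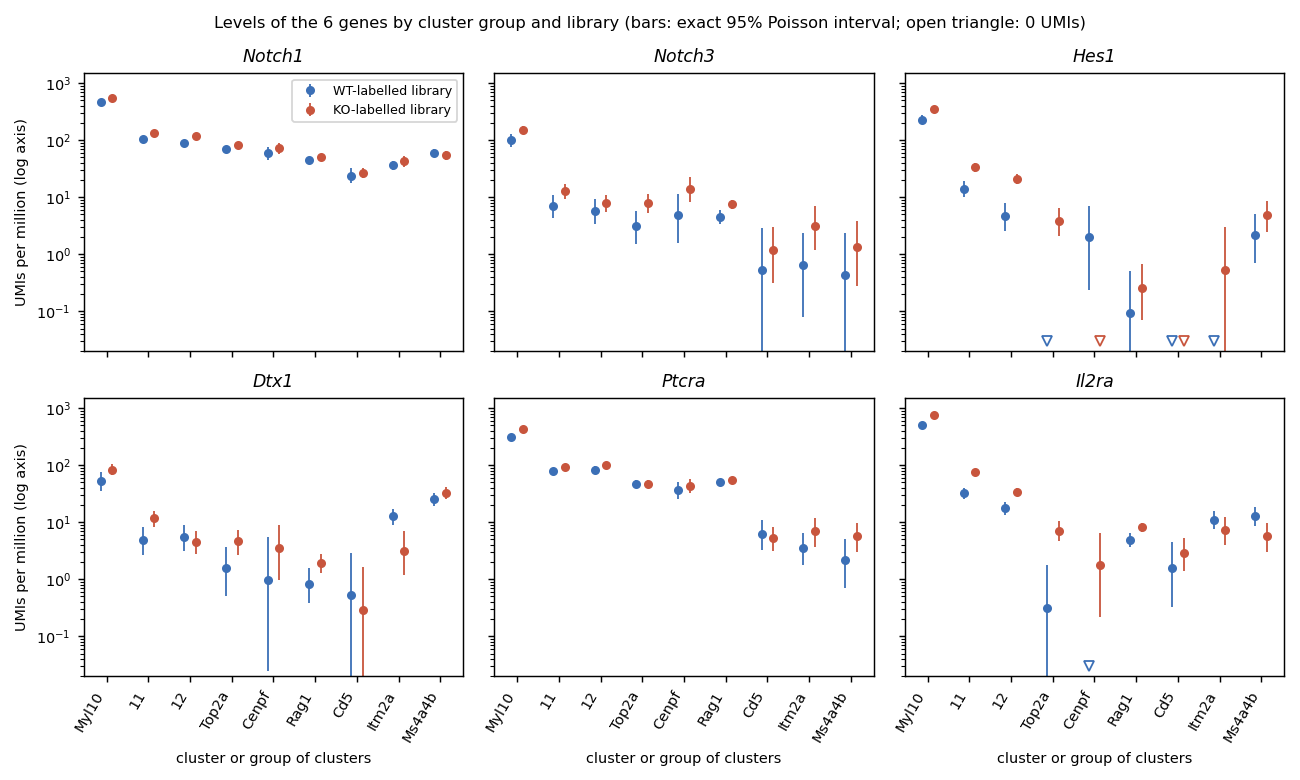
Level of each gene in CPM (log axis) in 9 clusters or groups of clusters, for the WT-labelled (blue) and KO-labelled (red) library, with exact 95% Poisson bars and open triangles for 0 UMIs. All 6 genes are highest in the Myl10 cluster, Ptcra holds at 51.9 and 54.1 in the Rag1 clusters before its drop, and Dtx1 returns to 25.8 and 32.7 in the Ms4a4b cluster.

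For the comparison of the libraries, levels were set against each other as a log2 ratio, positive where the KO-labelled library was higher, after 0.5 was added to both UMI sums. A gene was counted as higher or lower where the ratio was at least 1.5-fold and the gene had at least 20 UMIs in the group over both libraries, and the share of all genes past the same fold is given beside each count. Over 10 groups the 6 genes make 60 values, of which 43 had at least 20 UMIs, 18 were higher in the KO-labelled library and 3 lower. A value from few UMIs, such as 1 and 26, can reach that minimum through the higher library alone, so the counts are a description. The Myl10 cluster had 3 of 6 higher and 0 lower, where 10.9% of all genes were higher and 7.67% lower. These 3 lay just past the fold, at log2 ratios of 0.62 to 0.65, and Il2ra just inside it, so that 0 of 6 were higher at 2-fold. In proliferating cluster 11 the count was 4 of 6 higher and 0 lower (7.18% and 3.58% of all genes), and in cluster 12 it was 2 of 6 and 0 (5.93% and 3.72%). In the Top2a cluster 3 of 5 were higher and 0 lower (6.75% and 3.02%), in the Cenpf cluster 1 of 3 and 0 (9.1% and 4.79%), and in the Rag1 clusters 3 of 5 and 0 (5.8% and 2.57%). In these 6 groups 29 of the 31 values were above 0, as were between 52.2% and 61.8% of all genes in each. The median log2 ratio over the members with at least 20 UMIs was 0.59 in the Myl10 cluster, 1.03 in cluster 11, 0.43 in cluster 12, 1.29 in the Top2a cluster, 0.29 in the Cenpf cluster and 0.71 in the Rag1 clusters, while that over all genes was between 0.02 and 0.05 in these 6 groups.

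Fewer members had 20 UMIs in the later groups, and a difference between groups was not tested. In the Cd5 clusters 0 of 2 were higher and 0 lower (7.02% and 3.56% of all genes). In the Itm2a cluster 1 of 4 was higher and 1 lower (11.3% and 4.95%), in the Ms4a4b cluster 0 of 3 were higher and 1 lower (21% and 5.55%), and in the Lars2 cluster 1 of 3 was higher and 1 lower (15.6% and 8.32%). Over all genes the median was 0.16 in the Itm2a cluster and 0.24 for Ms4a4b, so changes there are also given relative to it.

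By gene, 16 of the 18 higher values were those of Notch3, Hes1, Dtx1 and Il2ra. Notch1 passed the fold in 0 of 10 groups, and its log2 ratio was between −0.24 in the Lars2 cluster and 0.41 in proliferating cluster 12. Relative to that median it was −0.37 in the Ms4a4b cluster. Ptcra passed it in 2 of 9 groups, the Itm2a cluster with 11 and 13 UMIs and the Lars2 cluster with 4 and 16, and both intervals included 0. The Itm2a value turned to −0.37 without the 5% of cells that had most UMIs. In the Rag1 clusters, where Ptcra was counted best, the log2 ratio was 0.06 (−0.09 to 0.22), and in the Top2a cluster −0.01 (−0.33 to 0.31). In the Myl10 cluster it was 0.46 (0.20 to 0.74), below the fold.

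Hes1 was higher in the KO-labelled library in 3 of the 3 groups with at least 20 UMIs. Its log2 ratio was 0.63 (0.33 to 0.94) in the Myl10 cluster, 1.27 (0.75 to 1.83) in proliferating cluster 11 and 2.11 (1.33 to 3.08) in cluster 12. The last of these is 14 UMIs against 92, or 4.44 times, and 62 of the 92 lay in 5 cells, so few cells carry it. Hes1 also had 0 UMIs for the WT-labelled and 14 for the KO-labelled library in the Top2a cluster, the latter from 3 cells. Within the cells of the Myl10 cluster that had a UMI of Cd4, Cd8a or Cd8b1, the log2 ratio of Hes1 was 0.04. That lies outside the interval given above for the whole cluster, and this split was chosen after the values were seen.

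Notch3 was higher in 5 of 6 groups. The log2 ratio was 0.62 (0.17 to 1.11) in the Myl10 cluster, 0.85 (0.08 to 1.71) in cluster 11, 1.29 (0.26 to 2.54) in the Top2a cluster, 1.43 (0.00 to 3.32) in the Cenpf cluster and 0.71 (0.22 to 1.22) in the Rag1 clusters. Its value in cluster 12, 0.45 (−0.40 to 1.41), was the exception.

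Dtx1 was higher in 4 of 7 groups, with 0.65 (0.03 to 1.34) in the Myl10 cluster, 1.22 (0.35 to 2.24) in cluster 11, 1.47 (0.07 to 3.36) in the Top2a cluster from 5 and 17 UMIs, and 1.18 (0.13 to 2.50) in the Rag1 clusters from 9 and 30. In the Itm2a cluster it went the other way. There it had 39 UMIs in 31 of 479 cells of the WT-labelled and 6 UMIs in 4 of 316 cells of the KO-labelled library, which is a log2 ratio of −1.91 (−3.53 to −0.75), or −2.06 relative to the median over the genes of that group. The Ms4a4b value was 0.34 (−0.17 to 0.86), or 0.10 relative to the median there.

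Il2ra was higher in 4 of 8 groups and lower in 2. In the Myl10 cluster its log2 ratio was 0.57 (0.37 to 0.77), a ratio of 1.48 just inside the fold. It was 1.26 (0.92 to 1.63) in cluster 11, from 92 and 279 UMIs in 18 and 40 cells, 0.96 (0.51 to 1.46) in cluster 12 and 0.73 (0.26 to 1.22) in the Rag1 clusters. In cluster 12 the UMIs lay in 12 and 18 cells, with 41 of 52 and 96 of 151 in 5 cells of each library, so few cells carry that value. In the Top2a cluster 1 UMI stood against 26, a ratio of 22.7 (3.72 to 929), but 22 of the 26 lay in 1 cell. The lower values were −1.14 (−2.23 to −0.19) in the Ms4a4b cluster, or −1.38 relative to that of all genes, and −1.56 (−2.88 to −0.38) in the Lars2 cluster, from 17 and 10 UMIs. The Lars2 value turned to 0.74 without cells above 10% mitochondrial UMIs and to 0.47 without the cells of highest doublet score.

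**Figure D3:**
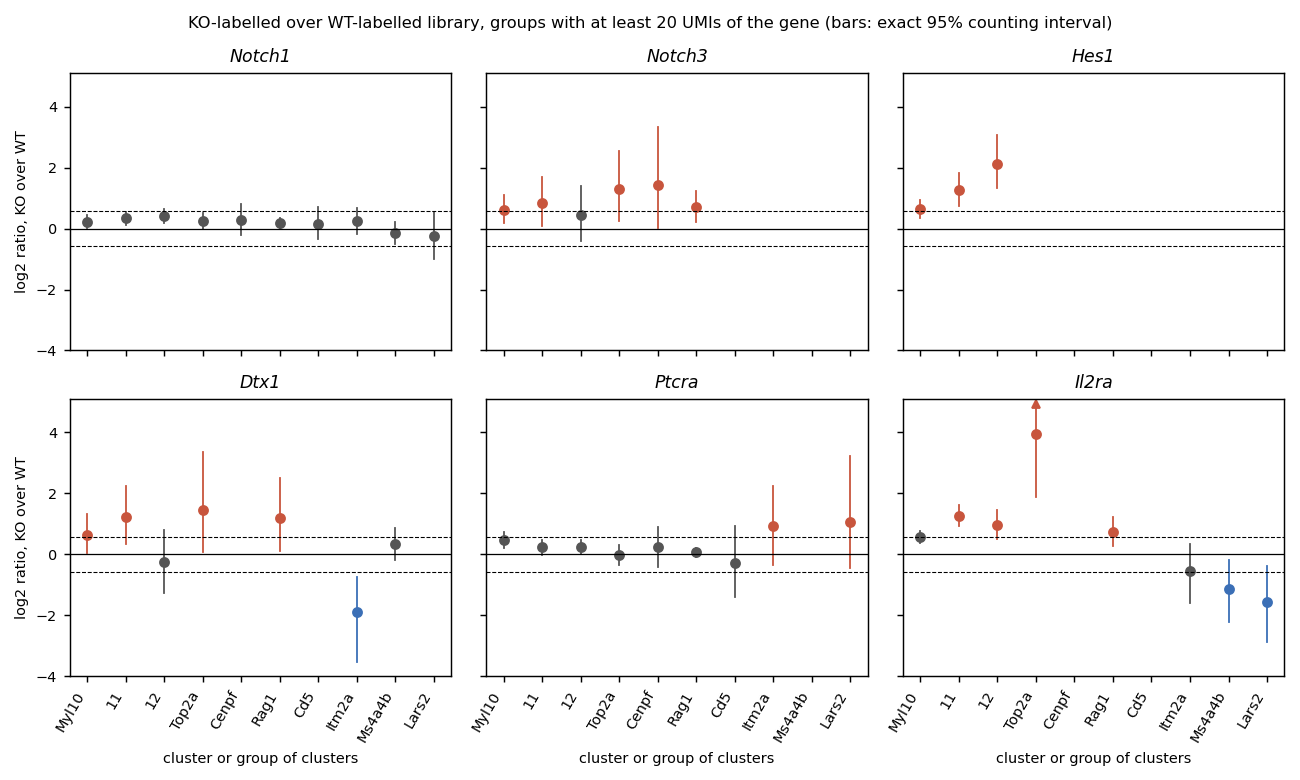
Log2 ratio (KO-labelled to WT-labelled) of each gene's level in the groups with at least 20 UMIs, with exact 95% counting intervals. Red and blue points lie past 1.5-fold (dashed lines) and the arrow marks an interval that leaves the panel. Notch1 stays inside the lines in 10 of 10 groups and Hes1 lies above them in 3 of 3. Dtx1 lies above them in 4 groups, below in Itm2a and inside in cluster 12 and Ms4a4b. Il2ra lies above them in 4 groups, below in Ms4a4b and Lars2 and inside in Myl10 and Itm2a.

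Other values also differed between the libraries, not always in the direction of the members. The Myl10 cluster gave 1.79% of the UMIs of the WT-labelled and 2.61% of those of the KO-labelled library. The 6 DN markers that are no members had a log2 ratio of −0.33 (−0.83 to 0.18) in the Myl10 cluster, but 0.65 (0.13 to 1.20) in cluster 11, from 46 and 91 UMIs, 1.73 (0.97 to 2.62) in the Top2a cluster, from 17 and 66, and 0.93 (0.52 to 1.38) in the Rag1 clusters, from 63 and 171. In cluster 12 it was 0.32 (−0.20 to 0.86), in the Cenpf cluster 0.97 (0.26 to 1.74) and in the Cd5 clusters 1.18 (0.25 to 2.32), the last from 11 and 46 UMIs. Their part in the differences of Notch3, Hes1, Dtx1 and Il2ra in those groups was not tested. Gamma-delta T markers summed to 553 and 686 CPM in cluster 11 and to 37.1 and 37.4 in the Rag1 clusters. Their log2 ratio was 0.31 (0.22 to 0.40) in cluster 11, but −0.16 (−0.27 to −0.06) in the Myl10 cluster. It was −0.23 (−0.36 to −0.10) in the Top2a cluster and −0.55 (−0.78 to −0.32) in the Cenpf cluster. In cluster 12 and in the Rag1 clusters it was 0.01, with intervals that included 0.

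Genes that TCR or pre-TCR signals raise also differed in the Myl10 cluster. Of the 5 markers of signalled DP cells, Cd5 had 10 and 37 UMIs, Cd69 2 and 33, Itm2a 4 and 27 and Nr4a1 0 and 10, while Egr2 had none, and their sum had a log2 ratio of 1.802 (1.07 to 2.70). Cells with a UMI of any of them numbered 9 of 54 for the WT-labelled and 35 of 99 for the KO-labelled library. In the cells without any, the log2 ratio was 0.77 for Notch3 (0.28 to 1.29), 0.82 for Hes1 (0.48 to 1.18), 0.84 for Dtx1 (0.14 to 1.62), 0.69 for Ptcra (0.40 to 0.99) and 0.70 for Il2ra (0.47 to 0.94), each larger than over the whole cluster but with overlapping intervals. This split was chosen after the values were seen. All 6 genes had lower levels in the cells with such UMIs than in those without in both libraries. Notch3 was at 42.3 against 116.5 CPM and 90.5 against 199, and Ptcra at 195 against 340 and 247 against 550. Il2ra was at 457 against 527 and 619 against 856. For the WT-labelled library this rests on 9 cells, with 5 UMIs of Notch3, 5 of Dtx1 and 23 of Ptcra. Its gaps were narrower for Notch1, at 406 against 483, and for Hes1, at 203 against 235.5. No interval was computed for this contrast, and the depth of the cells was not compared.

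Markers of other cell types in the Myl10 cluster were led by single genes. The 6 natural killer markers summed to 217 and 140 CPM, nearly all from Nkg7, with Ncr1, Xcl1 and Il2rb at 0. The 6 B cell markers summed to 236 and 242, from Ighm and Cd79b, with Ms4a1 and Igkc at 0, and the 6 macrophage markers to 66.0 and 52.5, with C1qa, C1qb, C1qc and Adgre1 at 0. Of 8 markers of thymic epithelium 5 were in the matrix and summed to 162 and 199, nearly all from Epcam, with Krt5 and Psmb11 at 0. The 5 regulatory T markers summed to 253 and 311 with Foxp3 at 0, the 7 dendritic markers to 5.66 and 1.009, and the pair of haemoglobin genes to 7.55 and 0, while these had 10.8 and 0.846 in the Rag1 clusters. The 8 DP markers summed to 2982 and 2804, the 6 markers of single-positive cells to 449 and 489, and the 7 proliferation markers to 440 and 480, against 22933 and 21775 in the Top2a cluster. No list other than that of signalled DP cells reached the fold in the direction of the members.

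In proliferating clusters 11 and 12 Il2ra and Hes1 had higher levels in cells without any UMI of Cd4, Cd8a or Cd8b1, the coreceptor genes that DP cells make. In cluster 11 such cells numbered 15 of 177 for the WT-labelled and 27 of 188 for the KO-labelled library, and they held 54.3% and 57.3% of the Il2ra UMIs. Il2ra was at 194 and 335 CPM in them against 16.2 and 38.2 in the other cells, a ratio of 12 (7.80 to 18.5) and 8.77 (6.87 to 11.2). In cluster 12 they numbered 9 of 138 and 15 of 186 and held 55.8% and 54.3% of the Il2ra UMIs, a ratio of 16.9 (9.45 to 30.6) and 16.8 (12.05 to 23.5). Of the Hes1 UMIs these cells held 32.5% and 65.6% in cluster 11 and 35.7% and 28.3% in cluster 12, with ratios of level of 4.85 (2.30 to 9.73) and 12.4 (8.45 to 18.5) in cluster 11 and 7.46 (1.96 to 24.8) and 5.57 (3.39 to 8.89) in cluster 12.

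Ptcra did not follow it. Its ratio between cells without and with coreceptor UMIs was 0.37 (0.16 to 0.74) for the WT-labelled and 1.54 (1.15 to 2.03) for the KO-labelled library in cluster 11, and 1.18 (0.71 to 1.86) and 1.05 (0.70 to 1.52) in cluster 12. Notch1 was at 1.10 (0.73 to 1.61) and 2.45 (1.99 to 3.00) in cluster 11 and at 1.40 (0.89 to 2.11) and 1.11 (0.78 to 1.55) in cluster 12. Within the cells that had a coreceptor UMI, the log2 ratio of the libraries in cluster 11 was 1.23 for Il2ra but 0.37 for Hes1, and within those that had none it was 0.78 and 1.69. These splits of the library ratio were chosen after the values were seen. Trgc1 was high in the same cells of cluster 11, at 883 and 690 CPM against 54.0 and 85.0 in cells with Cd8a or Cd8b1 UMIs alone, and the part of gamma-delta T cells was not tested.

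**Figure D4:**
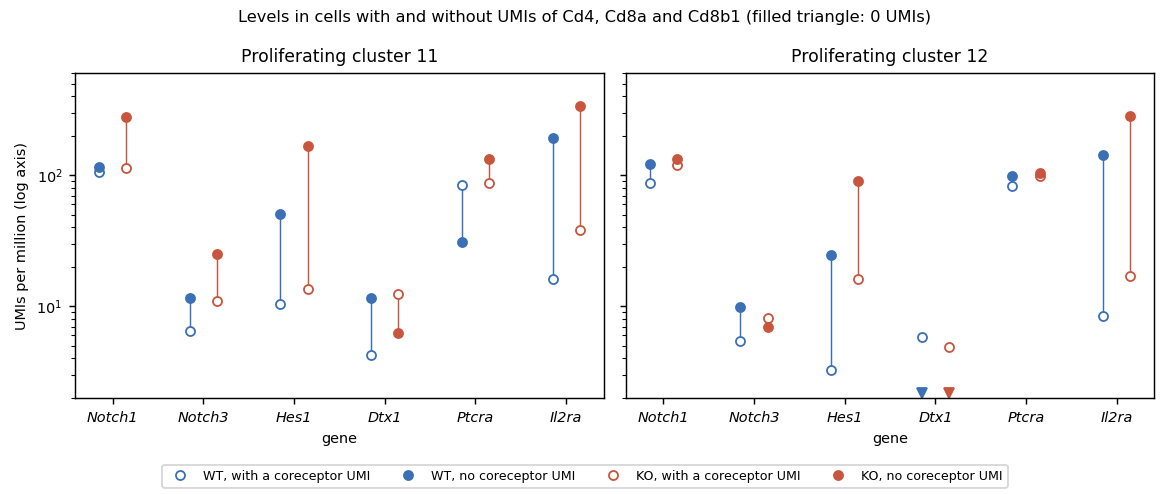
Level of each gene in CPM (log axis) in cells without (filled) and with (open) UMIs of Cd4, Cd8a or Cd8b1, in proliferating clusters 11 and 12 of the WT-labelled (blue) and KO-labelled (red) library, with filled triangles for 0 UMIs. Il2ra and Hes1 are higher in the cells without coreceptor UMIs in both clusters and libraries, by 12 and 8.77 times for Il2ra in cluster 11.

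In single cells of the Myl10 cluster co-detection was set beside the product of the separate shares, which leaves little room for an excess where a gene is in nearly every cell, as Notch1 and Il2ra are with 144 of 153 each. All 6 were detected in 9 of 54 cells of the WT-labelled and 25 of 99 of the KO-labelled library, and none in 1 cell of each. Of 153 cells, 56 held both Dtx1 and Ptcra against 45.9 from the product of the shares, the largest excess of the 15 pairs by ratio, and 71 held both Notch3 and Hes1 against 72.5. After thinning to 1000 UMIs, 29 cells held Notch1 and Ptcra against 19.1, 18 held Hes1 and Ptcra against 11.2, 5 held Dtx1 and Ptcra against 2.94, and 1 held Hes1 and Dtx1 against 2.48. Ranked by their levels in these cells, Ptcra and Rag1, which cuts the TCR loci, had Spearman coefficients of 0.57 (54 cells) and 0.42 (99 cells), and Ptcra and Notch1 0.45 and 0.38. Ptcra and Trgc1, a gamma chain gene, had −0.35 and −0.12, and Hes1 and Ptcra −0.07 and 0.17. Cells of 1 library share their depth and their source, so these are descriptions. In cluster 11, 11 of the 20 cells with Hes1 in the WT-labelled library also held Il2ra against 2.03 from the shares, and 24 of 35 did in the KO-labelled library against 7.45. Thinned, 2 of 365 cells of this cluster held both.

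Il2ra is also the gene of regulatory T cells, which are marked by the transcription factor Foxp3. In the Ms4a4b cluster of the WT-labelled library 20 of 332 cells held a Foxp3 UMI, and 7 of the 12 cells with Il2ra were among them, with 21 of the 30 Il2ra UMIs. In the KO-labelled library 0 of 396 cells held Foxp3, which allows a share of up to 0.758% of cells with a Foxp3 UMI and sets no limit on cells that express it, and Il2ra had 13 UMIs in 8 cells. In cells without a Foxp3 UMI Il2ra had 9 and 13 UMIs, a log2 ratio of 0.48 (−0.84 to 1.91). That interval overlaps the one of the whole cluster, and the part of Foxp3 cells in the lower value was not tested. The 5 regulatory T markers summed to 523 and 254 CPM in this cluster. In the Itm2a cluster none of the 18 and 4 cells with Il2ra held Foxp3.

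The other genes of the pathway were taken from lists. Of the other receptors, Notch2 stayed between 7.59 CPM in proliferating cluster 11 and 15.01 in the Ms4a4b cluster, and Notch4 had 40 UMIs in all. Of the ligands Jag1 had 12 and Jag2 79 UMIs over all cells. Dll1, Dll3 and Dll4 were absent from the genes of the deposited count matrix and could not be examined. The fringe enzyme Lfng, which adds sugars to the receptor, also had a low in DP cells and a high after them, at 32.9 in the Myl10 cluster, 0.572 in the Rag1 clusters, 0.188 in the Cd5 clusters and 109 in the Ms4a4b cluster. Rbpj, the DNA-binding partner of Notch, was at 61.8 in the Myl10 and 68.2 in the Rag1 clusters, and its coactivator Maml3 at 59.8 and 11.6. Nrarp, a Notch target and feedback inhibitor, did not share the peak of the 6 genes: it had 0.658 CPM in the Myl10 cluster, from 1 UMI, and 6.87 in the Top2a cluster. Of the other targets Hes5 had 90, Hey1 8 and Heyl 4 UMIs over all cells. Myc, a target that drives growth, was at 180 in the Myl10 cluster, 100 in cluster 11 and 5.49 in the Rag1 clusters.

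In the Myl10 cluster 10.9% of all genes were higher and 7.67% lower, and the counts of the lists stand beside these shares. Between the libraries, 1 of 11 receptor processing genes was higher and 1 lower in the Myl10 cluster, 0 of 5 genes of the nuclear complex were higher or lower, 1 of 5 inhibitors was higher, 0 of 12 pre-TCR partners were higher and 1 lower, and 0 of 5 E protein genes were either. These were Adam17 (7 and 24 UMIs) and Itch (29 and 84) on the higher side and Psen2 (11 and 11) and Syk (21 and 26) on the lower, and the intervals of Adam17, Psen2 and Syk included no change. In the list named for the stages after beta-selection 1 of 8 genes was higher, Il7r, the interleukin-7 receptor. With both libraries summed it was at 159 CPM in the Myl10 cluster, 0.381 in the Rag1 clusters and 303 in the Itm2a cluster. It is thus no marker of cells past that checkpoint alone. In the Myl10 cluster Il7r had 104 CPM for the WT-labelled and 189 for the KO-labelled library, which is a log2 ratio of 0.85 (0.42 to 1.32). It was also higher in cluster 11, at 0.97 (0.48 to 1.49), and in the Top2a cluster, at 2.01 (0.71 to 3.86) from 5 and 25 UMIs, but not in cluster 12, at −0.52 (−0.95 to −0.09). In the Rag1 clusters, with 12 of 12 pre-TCR partners and 6 of 6 E protein genes counted, none of those passed the fold, and Numbl (22 and 18 UMIs) was the only gene of the lists outside the members that did, on the lower side. Nrarp was lower in cluster 12, at −0.94 (−2.11 to 0.18), and in the Top2a cluster, at −0.87 (−1.82 to 0.01), where Notch3, Dtx1 and Il2ra were higher. Id2, an antagonist of E proteins, had 93 and 17 UMIs in cluster 12, a log2 ratio of −2.98 (−3.86 to −2.26), while it was higher in cluster 11, at 0.74 (0.03 to 1.52). In cluster 12 the 7 dendritic markers had 1277 and 41 UMIs, a log2 ratio of −5.51 (−6.01 to −5.08), and the 6 macrophage markers −1.23 (−1.76 to −0.73), and their part in the values of that cluster was not tested.

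Several other genes of the lists passed the fold in a dividing cluster, where between 5.93% and 9.1% of all genes were higher and between 3.02% and 4.79% lower. Myc was higher in the Top2a cluster, at 1.00 (0.32 to 1.75) from 25 and 58 UMIs, and so were the kinase gene Syk, at 1.02 (0.24 to 1.90), and the gamma-secretase gene Ncstn, at 0.61 (0.09 to 1.17). Rbpj and Fbxw7, whose product marks cleaved Notch for breakdown, were higher in the Cenpf cluster, at 0.77 (0.16 to 1.42) and 0.62 (0.04 to 1.23), and the amino acid carrier gene Slc3a2 was lower, at −0.75 (−1.42 to −0.12). The haemoglobin genes had 1294 and 0 UMIs in the Cenpf cluster and the 6 B cell markers 561.7 and 1046 CPM, a log2 ratio of 0.90 (0.75 to 1.05), and their part there was not tested. The values of Psen2 in clusters 11 (0.93) and 12 (−0.76), Nrarp in cluster 11 (0.62), Dtx2, Dtx3 and Syk in cluster 12 (−0.63, 0.64 and 0.66), Id2 in the Top2a cluster (0.62) and Rfng and Dtx3 in the Cenpf cluster (−0.65 and 0.67) had intervals that included 0.

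Past the DP stage, Il7r was lower in the Cd5 clusters, at −2.06 (−3.33 to −0.99) from 24 and 10 UMIs, and Maml3 and Bcl2a1b, an anti-apoptotic gene, had −0.63 and −0.84 there with intervals that included 0. Of all genes 7.02% were higher and 3.56% lower in those clusters, and 11.3% and 4.95% in the Itm2a cluster. In the Itm2a cluster Lfng had 127 and 33 UMIs, a log2 ratio of −1.23 (−1.85 to −0.68), next to the fall of Dtx1 there, and Maml3 (−0.92) and Bcl2a1b (−0.96) were lower too, while Gata3, a transcription factor of the CD4+ lineage, was higher at 0.78 (0.59 to 0.98). Genes of the lists that were higher in the Ms4a4b cluster included Gata3 (0.99), Psen2 (0.96), Ncstn (0.93), Fbxw7 (0.64), the E protein genes Tcf12 (0.67) and Tcf4 (0.60), Ccnd3 (0.62), Tfrc (0.89) and Cxcr4 (0.81), where the median of the whole table was 0.24. By list, 2 of 12 receptor processing genes, 0 of 6 of the nuclear complex, 1 of 7 inhibitors and 0 of 11 pre-TCR partners were higher. So were 2 of 5 E protein genes, 1 of 6 Notch targets and 4 of 12 of the list after beta-selection, beside 21% of all genes. Id2 (−0.83), Bcl2a1b (−1.77) and the TCR-induced genes Egr1 (−0.74) and Egr3 (−2.65) were lower there, as Il2ra was, beside 5.55% of all genes. The RNA-poor Lars2 cluster had Ncstn, Adam17, Furin, Rbpj, Syk, Id2 and Slc3a2 higher, between 0.67 and 1.39, and Dtx2 and Fyn lower, at −0.71 and −0.70. Of all genes 15.6% were higher and 8.32% lower there. Macrophage markers had 14 and 497 UMIs in that cluster (log2 ratio 4.28), dendritic markers 16 and 142 (2.29) and B cell markers 34 and 161 (1.41), and 14 and 83 macrophage UMIs were counted in the Ms4a4b cluster. Their part in these values was not tested.

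The genes most like each member were found by Pearson's r of log2(level + 1) over 38 profiles, each a cluster in a library, among 10697 genes with at least 200 UMIs. The profiles share their libraries and differ in depth, so the coefficients are descriptions. Notch1 was most like Uck2 (0.82), Lyrm9, Runx1, Mta1 and Thra. Notch3 was most like Prss57 (0.87), Evpl, Gm4632, Arhgap26.1 and Il2ra (0.80). Hes1 was most like Scin (0.82), Zeb2, Plac8, Frmd4a and Pld4, and Dtx1 like Gm12216 (0.88), Atp8b4, Gm4759, Gprin3 and Itgae, the last of which encodes the CD103 integrin. Ptcra was most like Smarca4 (0.87), Dntt, E2f4, Cdv3 and Desi1, of which Dntt encodes the polymerase that adds bases at V(D)J joins. Il2ra was most like Gm4632 (0.91), Trgv2, Notch3, Arhgap26.1 and H19. Among the members themselves the closest pair was Notch3 and Il2ra (0.80), then Notch1 with Ptcra and with Notch3 (0.71 each), and the least alike were Dtx1 and Ptcra (0.15) and Hes1 and Ptcra (0.17).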

How the data were processed

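The authors aligned 2 10x 3′ libraries to mm10 with Cell Ranger (3.0.2, with STAR, per the submitters' processing notes) and deposited UMI counts after Seurat filtering to 200 to 6000 genes and up to 50000 reads per cell. No cell lay outside these limits. Their deposited clusters at resolution 1.5 were used. The deposited mitochondrial percent was 0 in all cells and was recomputed from 34 genes. Cell names carry Cdc45 in place of Cdc42.

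UMIs were summed by cluster and library (Python 3.11.15, numpy 2.4.6, scipy 1.17.1, pandas 2.3.3, scikit-learn 1.9.0, matplotlib 3.10.9), with exact Poisson, Clopper-Pearson and conditional binomial intervals at 95%. With 1 library per condition no test was made. A floor of 3 counts per library stands for 0. Thinning to 1000 UMIs kept 13227 cells and left out 456. Doublets were kept, and the top 6% of a neighbour score (2000 variable genes, 30 components), 367 and 454 cells, were left out as an alternative. Other alternatives were resolutions 1.8 and 2, totals without 87 ribosomal and the mitochondrial genes, TMM (edgeR 4.0.16, R 4.3.3), DESeq2 1.42.0 size factors, means over cells and other minimums. The 6 genes, the marker lists and the pathway lists were chosen with earlier results of these data known. Named genes were the members, list genes past the fold, and the 5 genes most like each member over profiles of at least 20000 UMIs. Scripts were tested on simulated data.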

Additional observations from a re-analysis of the deposited data

Results flagged for a closer look

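Dtx1 and Il2ra differed between the libraries in opposite directions in different groups, with intervals on both sides of 0. The difference between the groups was not tested, since each condition is 1 library. For Dtx1 the log2 ratio, positive where the KO-labelled library was higher, was 0.65 in the Myl10 cluster, 1.22 in proliferating cluster 11, 1.47 in the Top2a cluster and 1.18 in the Rag1 clusters, but −1.91 in the Itm2a cluster. For Il2ra it was 1.26 in proliferating cluster 11, 0.96 in cluster 12, 3.94 in the Top2a cluster and 0.73 in the Rag1 clusters, but −1.14 in the Ms4a4b cluster and −1.56 in the Lars2 cluster. The Il2ra value of the Top2a cluster rests on 22 of 26 UMIs in 1 cell. In the Ms4a4b cluster 21 of the 30 Il2ra UMIs of the WT-labelled library lay in cells with a Foxp3 UMI, and their part in the value was not tested.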

How the results depend on the processing

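No paired analysis was possible because each condition is 1 library. Of 626 log2 ratios recomputed for the 43 values with at least 20 UMIs under 15 alternatives, 583 stayed within their counting interval, 35 moved further and 8 were sign changes of values past the fold. A further 21 recomputed values, of 13 ratios inside the fold, also changed sign and are counted among the others by size alone, such as Notch1 in the Cd5 clusters, at −1.57 in cells without coreceptor UMIs. The order of the clusters was recomputed under only some of these alternatives. They were totals without ribosomal and mitochondrial genes, means over cells, thinning and the other cluster resolutions. Leaving out cells by mitochondrial UMIs, by doublet score or by most UMIs was also among them. All 6 genes were highest in the Myl10 cluster in both libraries wherever the order was recomputed. Among values past the fold, sign changes were −0.087 for Notch3 in proliferating cluster 11 after thinning to 1000 UMIs (2 UMIs left), −0.89 for Dtx1 there in cells without coreceptor UMIs (6 UMIs), and −0.98 for Ptcra in the Itm2a cluster after thinning (1 UMI) and −0.37 without the 5% of cells that had most UMIs. Il2ra in the Lars2 cluster became 0.74 without cells above 10% mitochondrial UMIs, 0.47 without the top doublet scores, 0.62 without the cells with most UMIs and 1.28 in cells with coreceptor UMIs. The cause of these changes was not tested.

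The number of members higher in the KO-labelled library in the Myl10 cluster was 1 without the cells with most UMIs and 0 at 2-fold. It was 1 after thinning in cluster 11, 1 after thinning and at 2-fold in cluster 12, and 1 at 2-fold in the Rag1 clusters. In the Top2a cluster it was 0 after thinning, 0 with a minimum of 50 UMIs and 1 with the top cell of each member left out. In the Cenpf cluster it was 0 without the cells with most UMIs, with that minimum or without the top cell, and with a minimum of 1 UMI 3 were higher and 1 lower. In the Cd5 clusters a minimum of 1 UMI gave 2 higher and 1 lower. In the Itm2a cluster 0 were higher with means over cells, without doublet scores, without the cells with most UMIs, with the minimum of 50, at 2-fold, without the top cell and in cells without coreceptor UMIs, and 3 with a minimum of 1. The lower count there was 2 with totals without ribosomal and mitochondrial genes, TMM, DESeq2 size factors, means over cells, without doublet scores, cells with most UMIs or the top cell, and after centring on the median of all genes, and 0 after thinning, with the minimum of 50 and in cells without coreceptor UMIs. In the Ms4a4b cluster thinning gave 1 higher and 0 lower, a minimum of 1 gave 3 higher, and a minimum of 50 gave 0 lower. In the Lars2 cluster both counts were 0 after thinning, without doublet scores, cells with most UMIs or the top cell, and with the minimum of 50, the higher count was 0 in cells without and the lower 0 in cells with coreceptor UMIs, and a minimum of 1 gave 3 lower. Leaving out the top cell, splitting by coreceptor and centring on the median were chosen after the data were seen. Depth limits the rare genes most, since thinning left 1 or 2 UMIs for some of them.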
